A study of Mus musculus with 6 samples.

Results

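The expression of 10 genes was followed in mouse RPE/choroid, the retinal pigment epithelium (RPE) together with the vascular layer behind it. The genes are the ligands Cd200 and Cd47 and 8 paired receptors of myeloid cells, namely Cd200r1, Cd200r3, Cd200r4, Pira2, Pirb, Cd300a, Cd300lf and Sirpa. The 10 members were looked up by gene symbol among the 33924 genes listed, where 9 stood under their own symbol and Pirb under its synonym Lilrb3. The members were chosen by their families, with the authors' comparison of young and aged mice for these genes known, and the values of that comparison are neither used nor given here. The libraries came from wild-type C57BL/6J mice, 3 of them young and 3 aged, and each sample combined the tissue of a pair of eyes. By the sample titles, the young mice were 1 to 2 months old and the aged mice 20 to 24 months, while the age field of the aged mice gives 22 to 24 months. All 6 mice are labelled male, whereas the study's methods describe mice of both sexes and a young group somewhat older than the labels give. The RNA was depleted of ribosomal RNA and enriched for poly(A) tails before sequencing.

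The only measurement used is a mean normalized count, which the authors averaged over the libraries of both ages. No value for a single mouse was used, so the levels below have no SD, and no difference between young and aged mice was tested. For the same reason, neighbours in the order of levels cannot be set against the spread between mice. To compare genes, each mean was divided by the length in kilobases of the gene's longest protein-coding transcript (count per kb). This takes the deposited means not to have been divided by length already, which the study's methods leave unclear. The 10 members together held 0.0557% of the summed mean counts of 40816668. In bulk tissue, fewer cells of a type and less RNA per cell cannot be told apart. The tissue label was checked against lists of cell type markers. Of 6 RPE markers, 5 lay between 9523 and 335233 counts per kb, and Best1 lay at 39.3. Rod and skeletal muscle markers were also abundant, with medians of 10979 and 12809 counts per kb. Of 4 red cell markers 2 had a line in the table, Hba-a1 at 54142 and Alas2 at 781 counts per kb. Their part in the levels of the members was not tested.

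Paired receptors are families in which inhibitory and activating members share much of their outer part and differ in how they signal. Inhibitory members carry tyrosine motifs in a long tail that recruit phosphatases or other brakes. Activating members have a short tail and borrow the signal from an adaptor such as Tyrobp or Fcer1g. Cd200 and Cd47 are surface proteins of neurons, vessels and other tissue cells that restrain macrophages and microglia through Cd200r1 and Sirpa. In the eye this restraint is part of what keeps resident myeloid cells quiet.

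Because near-identical genes can exchange reads, stretches of coding sequence are shown first for the pairs in which the level of a member depends on telling it from a relative. All stretches come from GENCODE transcripts on GRCm38, are 60 bases long, lie within a single coding exon and read 5′ to 3′, and capitals mark the bases that differ within a pair. The coding sequences of the inhibitory Cd200r1 and the activating Cd200r4 were 89.8% identical over 802 aligned bases, with a longest identical run of 88 bases. Their first window of full identity spans coding bases 270 to 329 of both genes, in exon 3 of Cd200r1 (plus strand of chr16:44789689-44789748) and exon 4 of Cd200r4 (plus strand of chr16:44833000-44833059).
Cd200r1 and Cd200r4, most alike: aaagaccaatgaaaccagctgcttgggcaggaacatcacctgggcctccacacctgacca
Their least alike window, coding bases 181 to 240 in the same exons, differed at 8 positions (chr16:44789600-44789659 for Cd200r1 and chr16:44832911-44832970 for Cd200r4).
Cd200r1, least alike: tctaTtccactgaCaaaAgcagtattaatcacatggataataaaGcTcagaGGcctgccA
Cd200r4, least alike: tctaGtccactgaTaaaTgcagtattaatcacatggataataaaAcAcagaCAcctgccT

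Cd200r3 stood further off. Its coding sequence was 75.8% identical to that of Cd200r4 over 768 aligned bases and 72.0% identical to that of Cd200r1 over 823, with identical runs of at most 19 and 21 bases. Even the window in which Cd200r3 and Cd200r4 are most alike held 7 differences, in exon 4 of Cd200r3 (plus strand of chr16:44954151-44954210) and exon 5 of Cd200r4 (plus strand of chr16:44833343-44833402).
Cd200r3, most alike: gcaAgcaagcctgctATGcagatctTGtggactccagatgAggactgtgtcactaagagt
Cd200r4, most alike: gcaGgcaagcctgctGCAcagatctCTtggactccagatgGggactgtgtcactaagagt
The third pair, activating Pira2 and inhibitory Pirb, was the closest of the pairs of members compared, with 95.5% identity over 2039 aligned bases and an identical run of 477 bases. The window in which they differ most held 10 differences at coding bases 433 to 492, in exon 4 of each gene on the minus strand (chr7:3844050-3844109 for Pira2 and chr7:3719351-3719410 for Pirb).
Pira2, least alike: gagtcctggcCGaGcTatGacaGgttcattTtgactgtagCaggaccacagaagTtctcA
Pirb, least alike: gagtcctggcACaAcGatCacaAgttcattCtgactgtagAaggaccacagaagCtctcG

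How much of each member's transcripts is its own was measured as the percent of all words of 50 bases that occur in no other gene. The words of Sirpa and Cd200 were 100% their own, and those of Cd47, Cd200r1, Cd300lf, Cd200r3, Cd300a and Cd200r4 between 95.1% and 99.4%. Of the words of Cd200r4, 2.99% were shared with Cd200r2 and 1.96% with Cd200r1. Pirb had 66.0% of its own. Pira2 had 7.05%, and 82.6% of its words occurred in Gm15922, a predicted gene between Pirb and Pira2 that was outside the naming rule and is named after its values were seen. A further 22.6% of the words of Pira2 occurred in Pirb, and words could be shared with several genes at once. With words of 100 bases, the length of 1 read, the own share of Pira2 was 15.9% and that of Pirb 79.3%. The level of Pira2 therefore depends on how the authors' quantification divided reads among relatives, and Gm15922 was listed with a mean normalized count of 154. Pira5, a family gene without a known length, was listed at 198, and its shared words were not measured under that name.

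**Figure D1:**
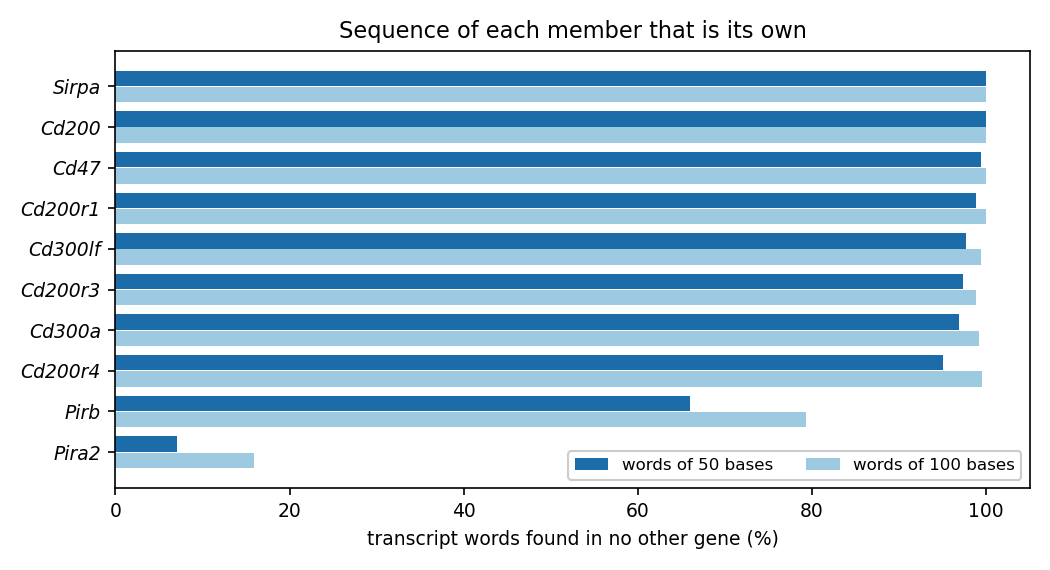
Percent of the transcript words of each member that occur in no other GENCODE gene, for words of 50 bases (dark bars) and 100 bases (light bars), on an axis that starts at 0. Pira2 (7.05% and 15.9%) and Pirb (66.0% and 79.3%) stand apart from the other 8 members, which are at 95.1% or more.

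The members lie in 4 places of the genome (GRCm38). Chromosome 16 holds 5 of them. Cd200r1 (44765736 to 44794978), Cd200r4 (44811733 to 44839150) and Cd200r3 (44943678 to 44981380) stand in this order on the plus strand within 215.6 kb. The nearer end of the gene of Cd200 (45382135 to 45409053, minus strand), which is its 3′ end, lies 400.8 kb further on. Cd47 (49800533 to 49915010, plus strand) lies another 4.39 Mb away. Pirb (3711409 to 3720391) and Pira2 (3836812 to 3845051) are 116.4 kb apart on the minus strand of chromosome 7. Cd300a (114890041 to 114904654, plus strand) and Cd300lf (115116214 to 115133992, minus strand) are 211.6 kb apart on chromosome 11. Sirpa (129592835 to 129632228, plus strand) is on chromosome 2.

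Both ligands were abundant. Cd200, an immunoglobulin-like membrane protein, had a mean normalized count of 5584, which is 2379 counts per kb of transcript. That level exceeded those of 91.3% of the 17973 genes of known length that averaged 10 or more normalized counts. Cd47, the "don't eat me" signal read by phagocytes, had a mean normalized count of 3403 and 648 counts per kb, above 72.9% of these genes. The level of Cd200 was 3.67 times that of Cd47 per kb of transcript and 2.02 times per kb of coding length. The gap narrowed because the longest transcript of Cd47 measures 5250 bases and its longest coding sequence only 1026.

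Sirpa, the inhibitory receptor for Cd47, was the most abundant receptor among the members, with a mean normalized count of 9854 and 2475 counts per kb. It alone made up 68.0% of the summed level per kb of the 8 receptors. Its level was 3.82 times that of its ligand Cd47 per kb of transcript and 1.93 times per kb of coding length. Sirpa and Cd200 were close, at a ratio of 1.04 per kb of transcript and 0.956 per kb of coding length. Sirpa is known from neurons as well as from myeloid cells, and which cells its count came from was not tested.

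The receptors of the Cd200 family covered a wide range. Cd200r4, an activating receptor, had a mean normalized count of 400 and 199.7 counts per kb. Cd200r1, the inhibitory receptor through which Cd200 acts, had 257 and 135.8 counts per kb. Cd200r3, an activating receptor known from mast cells and basophils, had 36.2 and 9.35 counts per kb, the lowest level of the 10 members. The level of Cd200r4 was 1.47 times that of Cd200r1 and 21.4 times that of Cd200r3 per kb of transcript. Per kb of coding length these ratios were 1.88 and 12.1. The ratio to Cd200r3 fell since the longest transcript of Cd200r3 (3876 bases) is far longer than its coding sequence (888 bases). Cd200r4 made up 57.9% of the summed level per kb of the 3 receptors. Cd200 was at 17.5 times its receptor Cd200r1 per kb of transcript and at 25.5 times per kb of coding length.

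Of the paired immunoglobulin-like receptors, inhibitory Pirb had a mean normalized count of 863 and 225.7 counts per kb. Activating Pira2 had 569 and 164.3 counts per kb. Their ratio, Pirb over Pira2, was 1.37 per kb of transcript and 1.23 per kb of coding length. These values carry the shared sequence described above.

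Cd300a and Cd300lf bind lipids exposed on dying cells. Cd300a, which is inhibitory, had a mean normalized count of 1639 and 353 counts per kb, the second highest of the receptors after Sirpa. Cd300lf, which carries inhibitory motifs but has been described with activating functions too, had 146.7 and 77.8 counts per kb. The ratio of Cd300a to Cd300lf was 4.53 per kb of transcript and 11.8 per kb of coding length. The long transcript of Cd300a, 4645 bases for 954 coding bases, accounts for the difference between the scales.

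Ordered by counts per kb of transcript, the members ran from Sirpa through Cd200, Cd47, Cd300a, Pirb, Cd200r4, Pira2, Cd200r1 and Cd300lf to Cd200r3. Sirpa was at 264.7 times Cd200r3 per kb of transcript and at 156.9 times per kb of coding length. The median of the genes averaging 10 or more normalized counts was 224.5 counts per kb, and 5 of the 10 members lay above it, Pirb by a small margin. Per kb of coding length 4 members lay above the corresponding median of 529. The 4 inhibitory receptors, Sirpa, Cd300a, Pirb and Cd200r1, lay between 135.8 and 2475 counts per kb, and the 3 activating receptors, Cd200r4, Pira2 and Cd200r3, between 9.35 and 199.7. Both ranges overlap. The summed level of the inhibitory receptors was 8.54 times that of the activating ones, and 1.91 times without Sirpa. Per kb of coding length these values were 10.7 and 2.85. Cd300lf, taken as of both kinds, entered neither sum. The sums describe the members only, which include Sirpa but none of its activating relatives. The activating sum also includes Pira2 with its shared sequence.

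**Figure D2:**
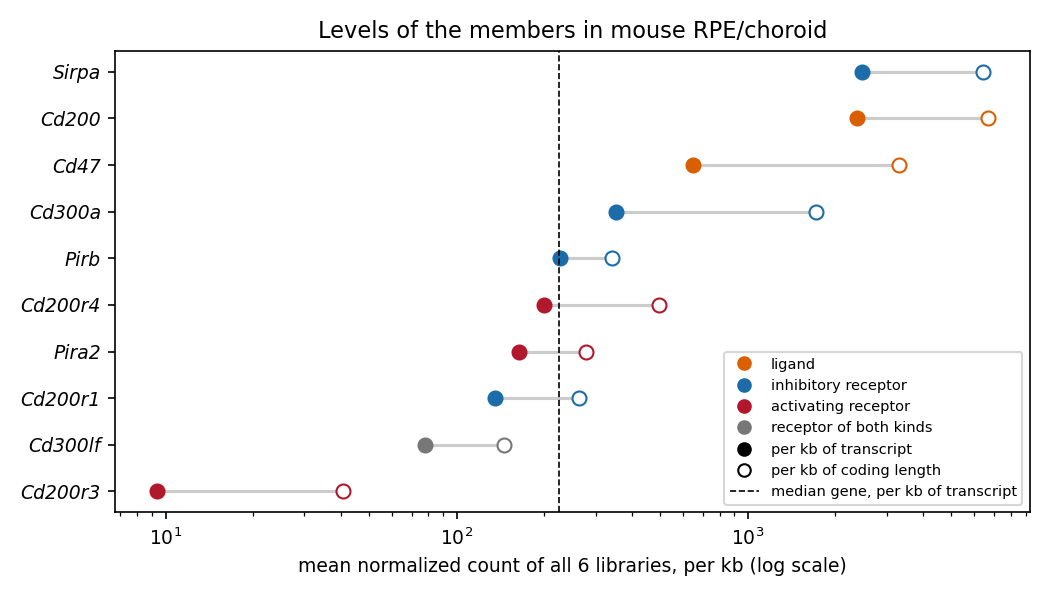
Level of each member as the authors' mean normalized count over all 6 libraries, divided by the longest coding transcript (filled points) or the longest coding sequence (open points) in kb, on a log axis, with no error since no value per library was used. Sirpa (2475) and Cd200 (2379) lead per kb of transcript, Cd200r3 (9.35) is lowest, and the dashed line marks the median gene at 224.5.

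Beyond the members, 25 further genes of these families were listed, of which 15 had a line in the table and 14 of these averaged 10 or more normalized counts. Their median was 99.5 counts per kb over the 14 with a known length. The highest was Lilrb4a, an inhibitory receptor of myeloid and mast cells, at 1275 counts per kb, followed by its neighbour Gp49a at 667. How much of the sequence of Lilrb4a and Gp49a is their own was not measured. The lowest was Cd300c at 3.36. Cd200r2, the close relative of Cd200r4, had 12.6 counts per kb. In the Cd300 family, Cd300lg, known from endothelium, had 203 counts per kb, Cd300ld 178.8, Cd300lh 88.2 and Cd300lb 83.1. Each of these exceeded Cd300lf at 77.8, while Cd300e lay lower at 26.2. The Sirpb1 genes, activating relatives of Sirpa, lay between 76.8 (Sirpb1a) and 118.0 (Sirpb1b), but they share many words among themselves, and 42.0% of the words of Sirpb1b were its own.

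The signalling partners of the members were present. Tyrobp, the adaptor of activating Cd200 receptors, had 9399 counts per kb, which was 47.1 times the level of Cd200r4. Fcer1g, the adaptor of activating Pir receptors, had 1157, which was 7.04 times the level of Pira2. Both ratios are per kb of transcript only and depend on the short transcripts of the adaptors. Tyrobp measures 597 bases and Fcer1g 683, against 2005 for Cd200r4 and 3462 for Pira2. Before division by length, the mean normalized counts were 5611 for Tyrobp and 400 for Cd200r4, and 790 for Fcer1g and 569 for Pira2. The level of Pira2 carries the shared sequence described above. Hcst, a further adaptor, had 198, and the kinase Syk 130.1. Of the phosphatases recruited by inhibitory tails, Ptpn11 had 1083 counts per kb, Ptpn6 601 and Inpp5d 166.8. Cd200r1 signals through Dok proteins and Rasa1 instead, and Rasa1 had 540 counts per kb, Dok1 493 and Dok2 82.04.

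Most other ligands of the members had high levels. Of 8 measured, 6 lay between 2171 and 32073 counts per kb, and Mag and Omg lay lower. Pirb and Pira2 bind class I histocompatibility molecules, and B2m, H2-D1 and H2-K1 had 32073, 21259 and 11907 counts per kb. Rtn4, Mag and Omg, myelin-associated inhibitors of axon growth that also bind Pirb, had 6296, 90.5 and 88.6, and Angptl2 had 2171. Thbs1, a secreted ligand of Cd47, had 3032.

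Cell types that could carry the receptors were checked by their markers. All 7 macrophage markers were measured, between 296 (Itgam) and 2493 (Cd68) counts per kb with a median of 1159. The median exceeded the level of each receptor among the members except Sirpa. Of 8 markers of mast cells and basophils, 7 averaged 10 or more normalized counts, with Cma1 the highest at 972 counts per kb, and the basophil protease Mcpt8 lay at 3.66. Cd200r3, known from these cells, lay at 9.35. Endothelial markers had a median of 915 counts per kb and melanocyte markers (Mlana, Pmel, Mitf and Dct) of 45420. The RPE is pigmented too, and whether the melanocyte markers came from melanocytes or from RPE was not tested. B cell markers had a median of 26.2 and T cell markers of 28.3 counts per kb. Among neutrophil markers S100a9 had 866, S100a8 737, Ly6g 2.27, and Mpo was listed at 0. The part of each cell type in the level of a receptor was not tested.

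**Figure D3:**
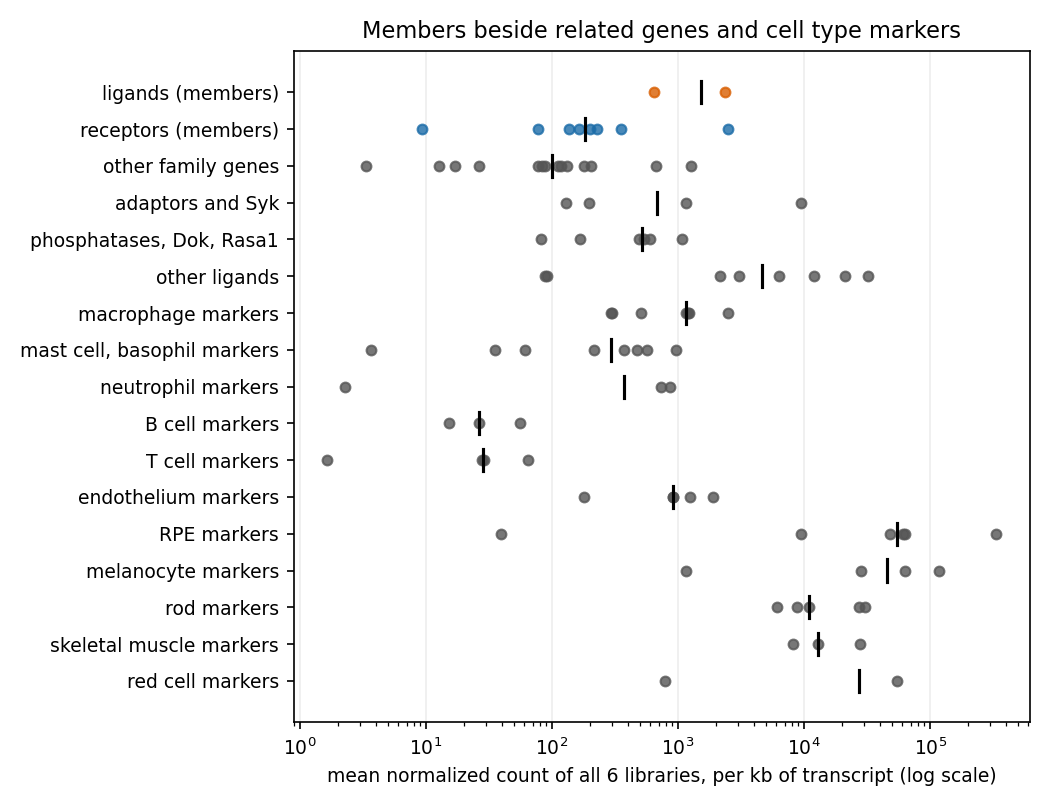
Counts per kb of transcript on a log axis for the members (coloured points), for related genes and for cell type markers (grey points), 1 point per gene with a known length and a black bar at the median of the row. The receptors lie below the median of the macrophage markers (1159) apart from Sirpa (2475), and Mpo, listed at 0, is not drawn but enters its median.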

How the data were processed

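RNA of RPE/choroid from 3 young and 3 aged mice was sequenced as paired reads of 100 bases. According to the study's methods, the authors trimmed reads with BBDuk, mapped them with STAR to GRCm38 transcripts, quantified TPM with Sailfish, turned these into normalized counts by total count and ran DESeq2, whose version is not given in the sources used here. The value used is the deposited mean normalized count, a signal that the authors averaged over the 6 libraries. Whether it still carried the division by length of the TPM step is not given in the sources used here, and if so counts per kb would be divided by length once too often. Of 658 genes above 0 with transcripts of at most 300 bases, 81 lay at the lowest values a gene can have, against 4 of 3387 with a transcript over 5000 bases. The medians were 1.47 and 951. These classes were not matched for the kind of gene, so the values cannot decide whether a division by length remained. The other deposited columns hold the authors' own comparison of young and aged mice (log2 fold change, standard error, Wald statistic, p-value and adjusted p-value) and were not used. The planned test of age needs values per library and was not run.

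Levels were divided by lengths from GENCODE M21 (GRCm38), matched by symbol or RefSeq synonym for 97.3% of the 18479 genes that averaged 10 or more normalized counts. The annotation is a later release than the one the authors mapped to. Coding sequences were aligned globally with Biopython 1.88, and words of 50 and 100 bases were compared with all GENCODE transcripts. The windows shown are the most or least alike of each pair. Single libraries could not be recovered. The lowest mean counts fell on 6 steps, 1 for each library, whose highest was 1.11 times the lowest, which gives relative scaling and not depth. All 3039 genes with a mean above 0 and under 1 could be written as whole numbers on these steps within rounding, but Cd200r3, the lowest member, had 5984 such solutions. Depth per library is unknown. Computations used Python 3.11.15, numpy 2.4.6, pandas 2.3.3 and matplotlib 3.10.9.

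The members and lists were chosen with earlier results of these data known. Genes named are the members, the listed family, signalling and ligand genes and the listed markers, except where marked.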

Additional observations from a re-analysis of the deposited data

How the results depend on the processing

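Against all genes with a mean above 0 in place of those with at least 10, 8 members lay above the median gene in place of 5, because the added genes are of low level. Per kb of coding length, chosen for this count after seeing the data, the number was 4. Ordered per kb of coding length, 6 of the 10 members kept their place, with Cd200 passing Sirpa and Cd200r4 passing Pirb, and ordered with no length 8 kept it. A tolerance 10 times wider gave 60110 solutions for the whole numbers of Cd200r3 per library in place of 5984. Words of 100 bases, also chosen after seeing the data, raised the own share of Pira2 by more than 1.5 times, and the other 9 members by less.

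No paired analysis was possible because single samples have no values here. Other scalings, a filter on counts per library, leaving out a replicate or a library and the replicate block were likewise not run. No error between mice can be attached to any level, and the depth of single libraries is unknown.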

Other observations

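The RefSeq table of promoters (GRCm38.p6, windows of 300 bases that span each start site) held 8 of the 10 members. Among these members Cd47 had the most CpG dinucleotides. Its 2 start sites had 35 and 36 in the window and a GC content of 74.0% and 74.3%, against medians of 7 and 52.7% over all 32851 promoters. Both windows overlap in most of their bases and lie inside the gene given above, away from its start. Of all promoters, 93.0% and 93.8% had fewer CpG dinucleotides. The receptors with an entry had between 1 and 6, namely Cd200r4, Cd300a and Pirb with 1 each, Cd200r3 and Pira2 with 2 and Cd300lf with 6. The window of Cd200r4 (44820478 to 44820777) also lies inside its gene, away from the start at 44811733. Cd200 had 8. The letters GAGGAAGT, a form of the site bound by the myeloid factor PU.1, were searched on both strands and occurred once each in the windows of Pirb, Pira2 and Cd300lf and in 3.20% of all promoters. Pirb and Pira2 are close relatives, so their matches cannot be taken as independent, and their windows were not aligned. A match of letters is a description and not evidence of binding.

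Pirb shared words of 50 bases with 246 other genes and Pira2 with 9. Beside each other, both shared the most with the same 8 genes of chromosome 7, Gm14548 among them, which had no line in the table. Of the other 7, Gm15922 had the highest mean normalized count at 154, followed by Gm15931 with 65.1, Gm15925 with 51.9, Lilra6 with 38.9 and Gm15448 with 15.0, while Gm15930 and Gm10693 were under 10. Lilra6 was among the listed family genes, while the predicted genes were named after their values were seen.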
